A study of Mus musculus with 16 samples.

Results

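The genes described here are the aquaporins of the kidney and the vasopressin receptor that governs them: Aqp1, Aqp2, Aqp3, Aqp4, Aqp6, Aqp7, Aqp11 and Avpr2. They were taken by gene name from both deposited expression tables, which list 30277 genes each, and all 8 were found. Their levels were measured by sequencing of polyadenylated RNA from perfused, flash-frozen mouse kidneys. The mice carried a recessive mutation of Klotho (Kl), a gene whose product is a coreceptor for the phosphate hormone FGF23, on the inbred strain 129S1/SvlmJ, to which the mutation had been made congenic by repeated backcrossing. There were 5 Kl/Kl males (44 to 47 days old) against 3 +/Kl control males (45 to 46 days), and 4 Kl/Kl females (45 to 54 days) against 4 +/+ control females (45 to 49 days). Per the labels the Kl/Kl mice had renal disease and the controls healthy renal function. Male controls carried 1 mutant allele and female controls none, and each sex was deposited as its own table, so sex, control genotype and table cannot be told apart. The labels do not say whether each library is 1 animal, and a p-value here reflects library-to-library spread, which may be technical.

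Aquaporins are membrane channels that let water, and in some members glycerol or other small solutes, cross cells. In the kidney, Aqp1 carries water out of the proximal tubule and the descending thin limb. In the principal cells of the collecting duct, Aqp2 is the channel inserted into the luminal membrane, and Aqp3 and Aqp4 are the exits on the other side. Vasopressin binds the V2 receptor, the product of Avpr2, which raises cyclic AMP through a stimulatory G protein and adenylyl cyclase. Protein kinase A then drives Aqp2 to the membrane and, over longer times, raises its transcription. Aqp6 sits in vesicles of intercalated cells and Aqp7, a glycerol channel, in the straight proximal tubule and in fat cells, whereas Aqp11 lies inside proximal tubule cells.

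On the mm39 build, named in the submitters' processing notes, the protein-coding genes Aqp2 (chr15:99476936-99482428) and Aqp6 (chr15:99499281-99503358) lie on the plus strand, 16852 bp apart, with only Aqp5 between them. Aqp7 (chr4:41033074-41048139) and Aqp3 (chr4:41092722-41098183) both lie on the minus strand, 44582 bp apart, with only Gm25637 between them. Aqp1 is at chr6:55313417-55325540 on the plus strand, Aqp11 at chr7:97373213-97387496 on the minus strand, and Avpr2 at chrX:72935708-72939108 on the plus strand. All 3401 bp of Avpr2 are covered by the annotated spans of L1cam and Arhgap4 on the opposite strand. The library kit keeps strand information, but whether counting used it is not given in the sources used here, so reads of Avpr2 and of those genes may not have been told apart.

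The bases before the start of Aqp2 and Aqp3 are shown because these are the members whose male groups did not overlap in the deposited values. Each is 250 bases from RefSeq on GRCm38.p6, 5′ to 3′ on the gene's own strand. Capitals mark TGACG (the half-site of the cyclic AMP response element), GATA (the core bound by GATA factors) and TATAAA (the TATA box), read on either strand, so that CGTCA and TATC are the reverse readings.
Aqp2, chr15:99578806-99579055, plus strand: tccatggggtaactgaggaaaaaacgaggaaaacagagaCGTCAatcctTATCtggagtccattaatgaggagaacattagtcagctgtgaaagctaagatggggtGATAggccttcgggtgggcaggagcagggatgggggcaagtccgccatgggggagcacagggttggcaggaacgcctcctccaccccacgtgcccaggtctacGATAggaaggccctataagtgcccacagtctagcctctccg
Aqp3, chr4:41098184-41098433, minus strand: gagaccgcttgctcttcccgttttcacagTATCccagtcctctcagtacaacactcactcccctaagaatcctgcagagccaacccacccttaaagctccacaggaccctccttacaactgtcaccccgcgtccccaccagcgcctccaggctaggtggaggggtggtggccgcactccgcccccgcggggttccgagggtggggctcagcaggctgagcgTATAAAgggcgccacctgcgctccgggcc

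In the Aqp2 sequence the TGACG match began at position -211 and GATA matches at -201, -144 and -41, counted from the start of transcription. The first GATA match lies within an AGATAA match at -202. The Aqp3 sequence held GATA at -221 and TATAAA at -29, and no TGACG. Among 32851 RefSeq windows of 300 bases (250 before and 50 after a start), 20.8% held TGACG on either strand, 57.9% GATA, 11.2% AGATAA and 13.6% TATAAA. Neither member held the full element TGACGTCA, which 1.79% of windows held, nor TGGAAA, the tonicity-responsive core, which 21.4% held. RefSeq windows were found for 7 of the 8 genes, Aqp4 being the other.

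Each value below is TPM as deposited, a read number divided by gene length, with the whole genomic span as the length. These quotients are scaled so that all libraries of a table have the same total. A gene's TPM therefore also depends on the other genes of its library. Estimated depth was 21600000 to 31700000 reads per library. A library stood apart in each table. Female Kl/Kl replicate 3 had almost none of the kidney's tubule RNA: the 5 principal cell markers summed to 0.260 TPM, against 38 to 44.4 TPM in the other Kl/Kl females, and 4 heart muscle markers to 1774 TPM, against 0.374 to 1.63 TPM. Male control replicate 3 had 78.3 TPM of 4 ascending limb markers, against 230 and 267 TPM in the other male controls. Fits of the members are given with these libraries and without them. In whole-kidney RNA, fewer cells of a type and less RNA per cell cannot be told apart.

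**Figure D1:**
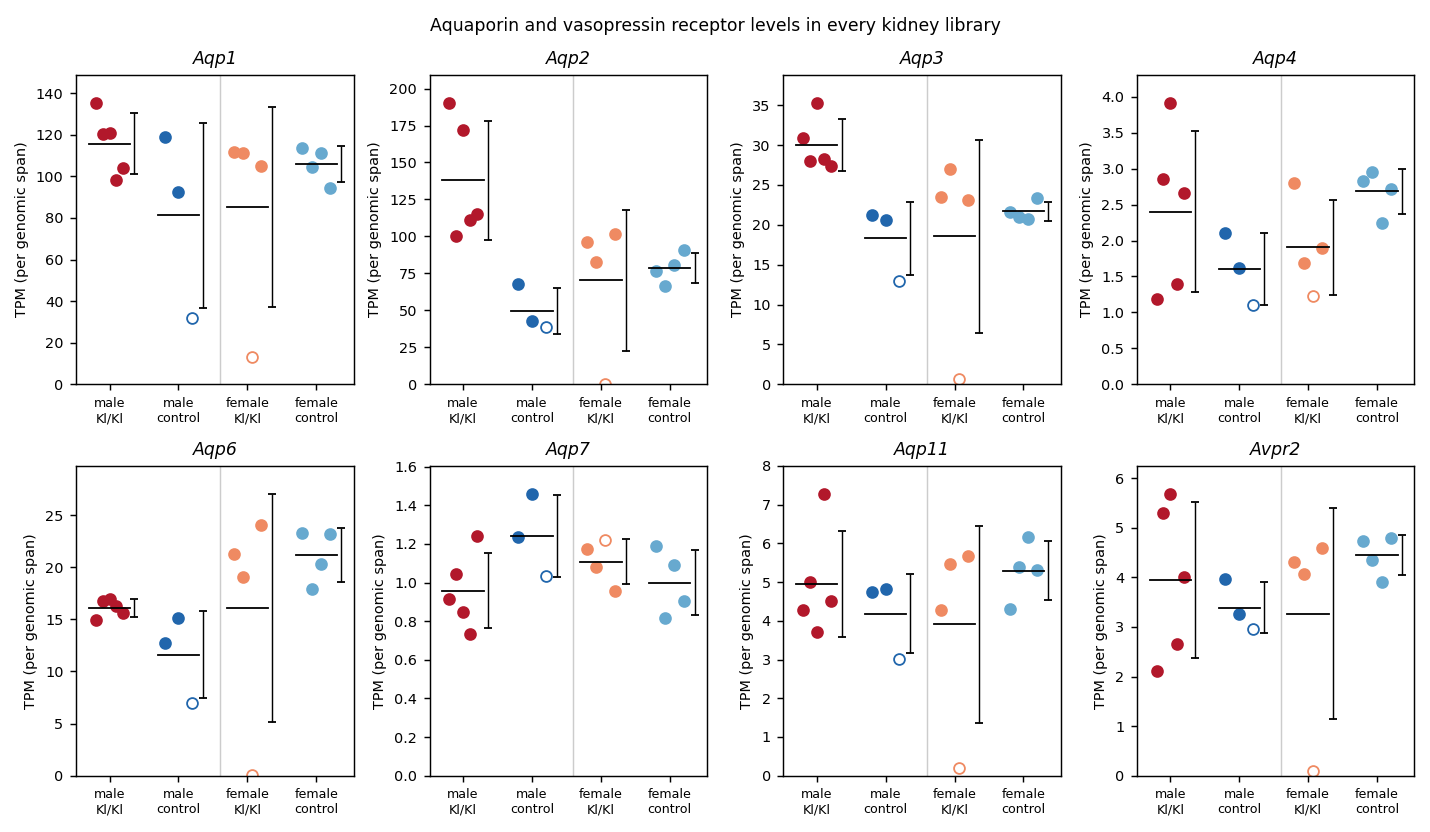
TPM (vertical axis, linear from 0, per genomic span) of the 8 genes in every library of male Kl/Kl, male control, female Kl/Kl and female control kidneys. Horizontal lines are group means, error bars 1 SD, and open circles the library that stood apart in each sex; Aqp2 and Aqp3 are the genes in which every male Kl/Kl point lies above every male control point.

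Aqp2, the vasopressin-regulated channel of the principal cell, rose in Kl/Kl males. It stood at 190, 100.4, 172, 111 and 115 TPM in Kl/Kl males, against 67.6, 42.9 and 38.6 TPM in control males. The lowest Kl/Kl male lay above the highest control, and Kl/Kl replicates 1 and 3 lay well above the other Kl/Kl males. The mean was 138 ± 40.4 TPM in Kl/Kl males (SD, n = 5) and 49.7 ± 15.7 TPM in control males (SD, n = 3). On the log2(TPM + 1) scale the difference was 1.45, with a standard error of 0.28 and a 95% interval of 0.83 to 2.06 (limma, adjusted p = 0.0142). This was the only member past the threshold of an adjusted p of 0.05, 1 of 8, in a comparison where 5.92% of the 8439 genes tested were called, 3.74% upward and 2.18% downward. Without male control replicate 3 the difference was 1.29 (adjusted p = 0.0335), again the only member called, where 3.16% of 8640 genes rose and 7.36% fell (10.5% in all). It did not pass without male control replicate 2 (1.37, adjusted p = 0.0633). The median over all genes tested was 0.19 with all males and 0.01 without male control replicate 3. With median-of-ratios scaling, which also brings that median to 0.01, Aqp2 differed by 1.19 (adjusted p = 0.0212).

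Aqp3, the exit channel on the blood side of the same cells, was at 30.8, 28.0, 35.3, 28.3 and 27.4 TPM in Kl/Kl males, against 21.3, 20.6 and 13.0 TPM in control males. The groups did not overlap, as with Aqp2, and the 5 Kl/Kl males lay close together. The log2 difference was 0.71 (SE 0.21), which missed the threshold (limma, adjusted p = 0.0683). It was 0.49 without male control replicate 3 (adjusted p = 0.0539). Expressed as exon-based RPKM, the estimated reads divided by exon length and depth, Aqp3 was at 85.8, 81.4, 108, 77.7 and 78.4 in Kl/Kl males, against 57.0, 55.9 and 55.5 in control males. On that scale male control replicate 3 was close to the other controls, and voom on the estimated reads gave a difference of 0.64 (adjusted p = 0.0188). Among all genes tested, 19.1% had every Kl/Kl male above every control male, so that 2 of 8 members is little above that share, and 4.4% had every Kl/Kl male lower, among them 0 members. Without male control replicate 3 those shares were 20.2% and 22.7%.

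The remaining members of the principal cell gave no call. Aqp4 (chr18:15522553-15544039, minus strand), also an exit channel, was at 1.19, 2.86, 3.92, 1.40 and 2.66 TPM in Kl/Kl males, against 2.10, 1.62 and 1.1 TPM in control males (log2 difference 0.34, adjusted p = 0.413, and 0.19 without male control replicate 3, adjusted p = 0.695). Avpr2, the receptor itself, was at 2.12, 5.31, 5.68, 2.66 and 4.01 TPM in Kl/Kl males, against 3.96, 3.26 and 2.95 TPM in control males (0.12, 95% interval -0.44 to 0.68, adjusted p = 0.778, and 0.05 without male control replicate 3, adjusted p = 0.930). Among the Kl/Kl males, both genes were lowest in replicates 1 and 4 and highest in replicate 3, and the Kl/Kl range enclosed all Avpr2 values of the controls. L1cam, which overlaps Avpr2 on the other strand, was likewise lower in Kl/Kl replicates 1 and 4 (1.02 and 0.955 TPM) than in replicates 2, 3 and 5 (1.38, 1.29 and 1.33 TPM). Its part in the Avpr2 values was not tested. Dividing Aqp2 by Avpr2 within each library gave 89.9, 18.9, 30.2, 41.9 and 28.8 in Kl/Kl males, against 17.1, 13.1 and 13.1 in control males. The groups did not overlap in this ratio of TPM per genomic span, which serves to compare libraries and not the levels of both genes. Replicate 1, with the highest Aqp2 and the lowest Avpr2, had the highest value. Dividing Aqp2 by Aqp3 gave 3.59 to 6.18 in Kl/Kl males, against 2.08 to 3.18 in control males, and these groups did not overlap. Dividing Aqp2 by Aqp4 gave 35.1 to 161 in Kl/Kl males, against 26.5 to 35.2 in control males, and here the groups overlapped. Aqp2 alone already separated the male groups, so the ratios to Avpr2 and Aqp3 are not a separate result. The share of all genes that separate in such ratios was not computed. In females Aqp2 over Avpr2 was 22.3, 20.3, 1.55 and 22.2 in Kl/Kl kidneys, against 16.2, 15.3, 20.7 and 18.9 in control kidneys, and all 3 ratios overlapped.

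**Figure D2:**
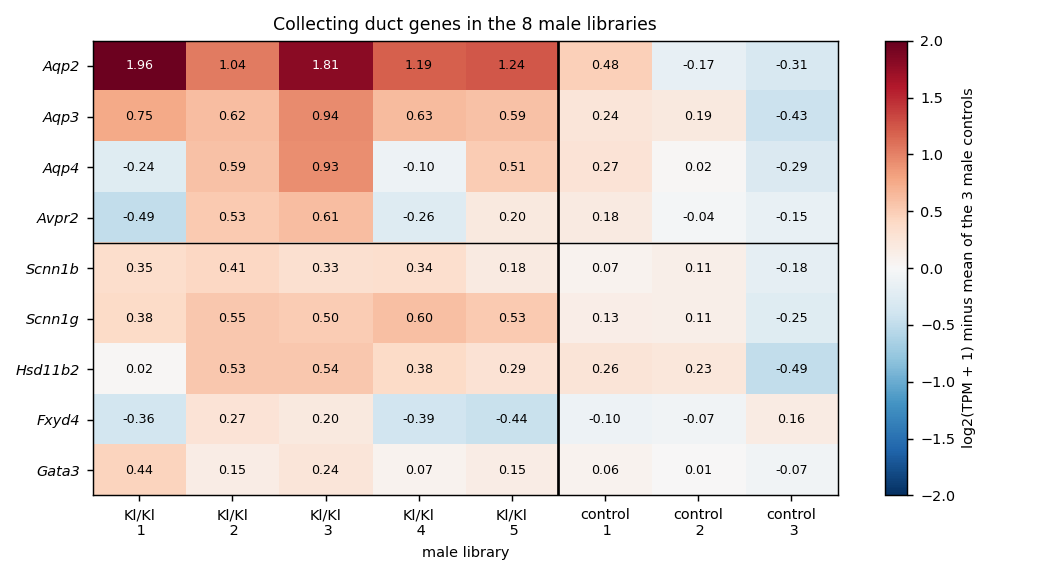
Difference of log2(TPM + 1) from the mean of the 3 male controls (colour and printed value) for 4 members and 5 principal cell markers in the 8 male libraries, Kl/Kl left of control. Aqp2 is 1.04 to 1.96 above in every Kl/Kl male, while Avpr2 and Aqp4 are below 0 in Kl/Kl replicates 1 and 4.

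On the log2(TPM + 1) scale the principal cell markers moved less than Aqp2, though the added 1 shrinks differences of genes near 1 TPM. Of the 3 tested, Scnn1g, the gamma subunit of the epithelial sodium channel, rose (1.36 ± 0.129 TPM in Kl/Kl males, n = 5, and 0.663 ± 0.236 TPM in control males, n = 3; log2 difference 0.51, adjusted p = 0.0431 by limma). That call was lost in all but 1 of the fits that left out a library. Hsd11b2, the enzyme that keeps glucocorticoids from the mineralocorticoid receptor, did not pass (0.35, adjusted p = 0.343), nor did Fxyd4, a regulator of the sodium pump (-0.14, adjusted p = 0.672). Over the alternatives Scnn1g differed by 0.377 to 0.998, and Aqp2 by 1.19 to 1.69. The groups of Hsd11b2 and Fxyd4 overlapped. Scnn1g and the untested markers Scnn1b and Gata3 were higher in every Kl/Kl male than in every control male, Gata3 narrowly. Such a separation was seen in 19.1% of all genes tested. The 5 markers summed to 27.6 to 39.4 TPM in Kl/Kl males and 21.3 to 31.3 TPM in control males. Taken relative to the mean log2(TPM + 1) of these markers within each library, Aqp2 was 5.01 ± 0.44 in Kl/Kl males (SD, n = 5) and 3.82 ± 0.34 in control males (SD, n = 3), a difference of 1.20 with no overlap. Aqp3 on the same footing was 2.89 ± 0.14 in Kl/Kl males (n = 5) and 2.43 ± 0.23 in control males (n = 3), a difference of 0.46 with no overlap, whereas Aqp4 (0.09) and Avpr2 (-0.13) overlapped. Relative to the same markers, 5.51% of the 8439 genes tested had every Kl/Kl male above every control, and 14% had every Kl/Kl male below. Without male control replicate 3 the differences were 1.12 for Aqp2 and 0.32 for Aqp3, again with no overlap, and 0.02 for Aqp4 and -0.12 for Avpr2. Of the 8640 genes then tested, 6.68% were wholly higher in Kl/Kl males and 35.5% wholly lower.

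In the proximal tubule, Aqp1 was at 135, 120.4, 120.6, 98.4 and 104 TPM in Kl/Kl males, against 119, 92.3 and 32.1 TPM in control males. The low control is replicate 3, the library that stood apart. Its proximal tubule markers summed to 252 TPM, below the other male controls (492 and 462 TPM) but above Kl/Kl replicates 1 and 4 (204 and 190 TPM). The log2 difference of Aqp1 was 0.69 with male control replicate 3 (adjusted p = 0.237 by limma) and 0.13 without it (adjusted p = 0.623). The 7 proximal tubule markers summed to 190 to 391 TPM in Kl/Kl males, against 252 to 492 TPM in control males, and went both ways, 3 of 7 being higher on the log2 scale. Without male control replicate 3, 1 of 7 was higher, and their median log2 difference was -0.63, against 0.01 for all genes tested. Slc22a6, an organic anion transporter, fell (log2 difference -1.70, adjusted p = 0.0213 by limma), a call lost without male control replicate 1 (adjusted p = 0.0611) or 2 (adjusted p = 0.0832). Slc4a4, the bicarbonate exit, did not pass by limma (0.90, adjusted p = 0.0909), though its groups did not overlap and voom called it upward. Relative to these markers, Aqp1 was 2.76 ± 0.45 in Kl/Kl males (SD, n = 5) and 1.81 ± 0.30 in control males (SD, n = 3), and the groups did not overlap, as in 10.3% of all genes tested. Without male control replicate 3 that difference was 0.81, where 66.7% of genes lay wholly higher. Aqp11 was at 4.29, 4.99, 3.72, 7.27 and 4.52 TPM in Kl/Kl males, against 4.73, 4.81 and 3.01 TPM in control males. It did not pass (log2 difference 0.19, adjusted p = 0.572, and 0.02 without male control replicate 3, adjusted p = 0.960). Kl/Kl replicate 4 had the highest value. Relative to the proximal tubule markers the groups of Aqp11 overlapped (0.45), but not without male control replicate 3 (0.70), where 66.7% of genes lay wholly higher.

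Aqp7 was the member with the lower Kl/Kl mean in males. It was at 0.916, 1.05, 0.848, 0.735 and 1.24 TPM in Kl/Kl males, against 1.24, 1.46 and 1.03 TPM in control males, and did not pass (log2 difference -0.20, 95% interval -0.48 to 0.08, adjusted p = 0.333, and -0.27 without male control replicate 3, adjusted p = 0.141). With a mean near 1 TPM it lay close to the filter, which all 8 members passed. Of 4 markers of the straight proximal tubule, the segment where it is found, 3 fell, among them Slc22a7, an organic anion transporter (0.234 ± 0.149 TPM in Kl/Kl males, n = 5, and 16.9 ± 6.25 TPM in control males, n = 3; adjusted p = 3.18e-06 by limma), and Slc7a13, an amino acid transporter, at an adjusted p of 0.000187. The third was Atp11a, a lipid flippase (adjusted p = 0.00385), and Slc5a1, a glucose transporter, did not pass (log2 difference -0.22, adjusted p = 0.505), but fell without male control replicate 3 (-0.52, adjusted p = 0.0284). Relative to those 4 markers Aqp7 was -0.33 ± 0.08 in Kl/Kl males (SD, n = 5) and -2.45 ± 0.52 in control males (SD, n = 3). That difference of 2.12 came with a change of the markers and not with a higher Aqp7 level: 98.5% of all genes tested separated the groups in the same way relative to these markers. Without male control replicate 3 it was 2.41. Because fat cells also hold Aqp7, adipocyte markers bear on it: the 5 markers summed to 9.65 to 42.0 TPM in Kl/Kl males, against 7.75 to 12.9 TPM in control males, 0 of the 2 tested passed limma's threshold and 0 had an unadjusted p under 0.05. Their part in the Aqp7 values was not tested.

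Aqp6, of the intercalated cell, was at 14.9, 16.8, 17.0, 16.3 and 15.6 TPM in Kl/Kl males, against 12.7, 15.1 and 7.02 TPM in control males. The Kl/Kl males were tightly grouped and control replicate 2 lay among them. The log2 difference was 0.50 (adjusted p = 0.192), and 0.20 without male control replicate 3 (adjusted p = 0.262, limma). Relative to the intercalated cell markers it was 1.90 ± 0.16 in Kl/Kl males (SD, n = 5) and 1.79 ± 0.27 in control males (SD, n = 3), and the difference was -0.02 without male control replicate 3. As exon-based RPKM, Aqp6 was at 23.4 to 29.3 in Kl/Kl males and 16.8 to 23.1 in control males, groups that narrowly missed overlapping. The share of all genes that separate on that scale was not computed.

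**Figure D3:**
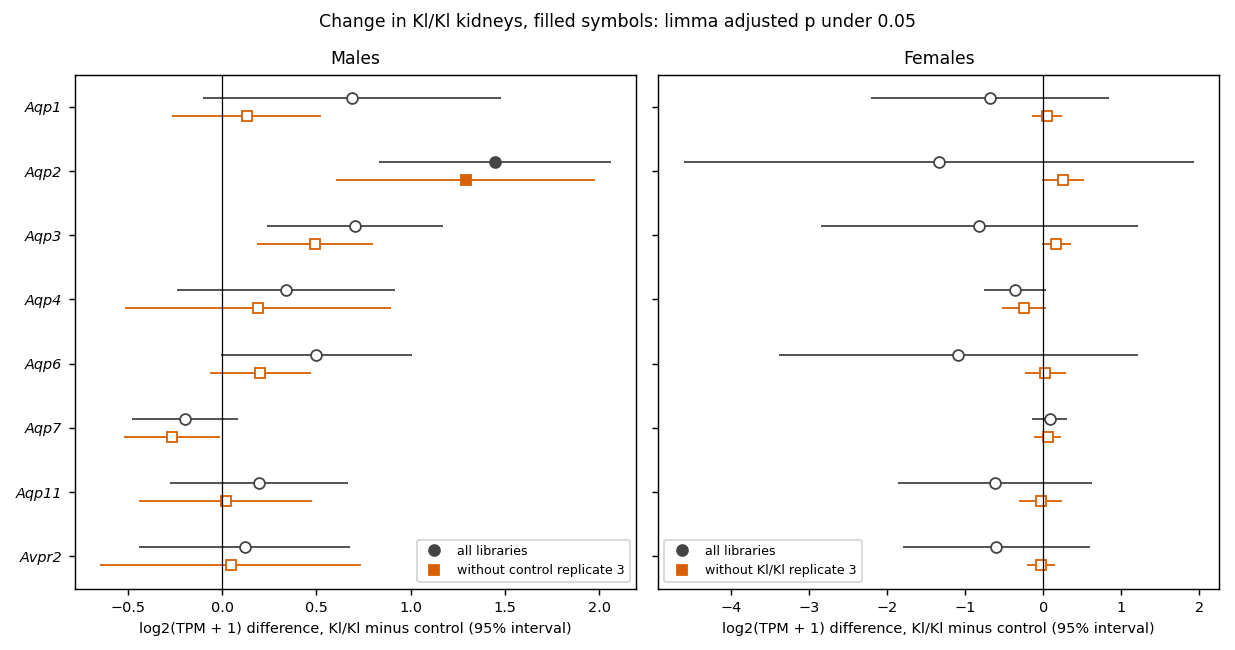
Difference of log2(TPM + 1), Kl/Kl minus control, for each gene with its 95% interval (limma), in males (left) and females (right; the horizontal scales differ). Circles use all libraries and squares leave out the library that stood apart; filled symbols mark Aqp2 in males, 1.45 and 1.29, the only values past an adjusted p of 0.05.

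In females no member passed the threshold. Aqp2 was at 96.3, 82.5, 0.139 and 102 TPM in Kl/Kl females, against 76.5, 66.6, 81.0 and 90.6 TPM in control females. Aqp3 was at 23.5, 27.0, 0.653 and 23.1 TPM in Kl/Kl females, against 21.7, 21.0, 20.8 and 23.4 TPM in control females. Avpr2 was at 4.32, 4.06, 0.0895 and 4.60 TPM in Kl/Kl females, against 4.73, 4.34, 3.92 and 4.80 TPM in control females. In all these genes the third Kl/Kl replicate was far below the rest, and the other Kl/Kl females overlapped the controls. Aqp1 was at 112, 111, 13.4 and 105 TPM in Kl/Kl females, against 114, 104, 111 and 94.6 TPM in control females. Aqp6 was at 21.3, 19.1, 0.0208 and 24.0 TPM in Kl/Kl females, against 23.3, 17.9, 20.3 and 23.1 TPM in control females. Aqp11 was at 4.28, 5.47, 0.200 and 5.69 TPM in Kl/Kl females, against 4.30, 5.39, 6.16 and 5.32 TPM in control females. Replicate 3 was again the low one in these genes, although Aqp1 kept more of its level than Aqp2 or Aqp6. The 7 proximal tubule markers summed to 0.879 TPM in that library, against 351 to 460 TPM in the other Kl/Kl females. The source of its remaining Aqp1 was not tested. Aqp4 was at 2.80, 1.69, 1.23 and 1.90 TPM in Kl/Kl females, against 2.83, 2.95, 2.24 and 2.72 TPM in control females. Relative to the principal cell markers it was 1.09 in replicate 3, against -0.75 to -0.18 in the other Kl/Kl females. The source of Aqp4 in that library was not tested. Aqp7 was at 1.17, 1.08, 1.22 and 0.956 TPM in Kl/Kl females, against 1.19, 0.818, 1.09 and 0.903 TPM in control females. In Aqp7, replicate 3 was the highest of the Kl/Kl females. The 5 adipocyte markers summed to 1191 TPM in that library, against 11.8 to 19.9 TPM in the other Kl/Kl females, and their part in its Aqp7 level was not tested.

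With all female libraries, 0 of 8 members were called by limma and 0 by voom, and none had a limma p below 0.05 before adjustment. The background was low as well, with 0.0349% of 8596 genes called, all downward. In 4.79% of genes every Kl/Kl female was above every control, and in 3.54% below, but in no member. The interval for Aqp2 was then wide (log2 difference -1.34, SE 1.41, 95% interval -4.61 to 1.93, adjusted p = 0.745). Without Kl/Kl replicate 3, Aqp2 averaged 93.6 ± 9.99 TPM in Kl/Kl females (SD, n = 3) and 78.7 ± 9.99 TPM in control females (SD, n = 4). The log2 difference was then 0.25 (SE 0.12, adjusted p = 0.299, limma), that of Aqp3 was 0.17 (adjusted p = 0.312), and that of Aqp4 was -0.25 (adjusted p = 0.325). Avpr2 differed by -0.03 (95% interval -0.21 to 0.15). Again 0 of 8 members passed and 0 had an unadjusted p under 0.05, with 0.103% of 8748 genes called (0.0572% rose, 0.0457% fell). Of all genes, 12.2% had every remaining Kl/Kl female above every control and 3.9% below, among them 0 members. Relative to its segment's markers, Aqp7 was the member whose female groups did not overlap, higher by 1.00 with all libraries and by 0.57 without Kl/Kl replicate 3. Of all genes tested, 64.3% separated the female groups in this way. The markers themselves summed to 9.42 to 12.6 TPM in the other Kl/Kl females, against 13.7 to 26.6 TPM in control females, while Aqp7 differed by 0.05. Without that replicate all 4 markers had an unadjusted limma p under 0.05, Slc7a13 being higher and the other 3 lower, and 0 passed after adjustment.

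**Figure D4:**
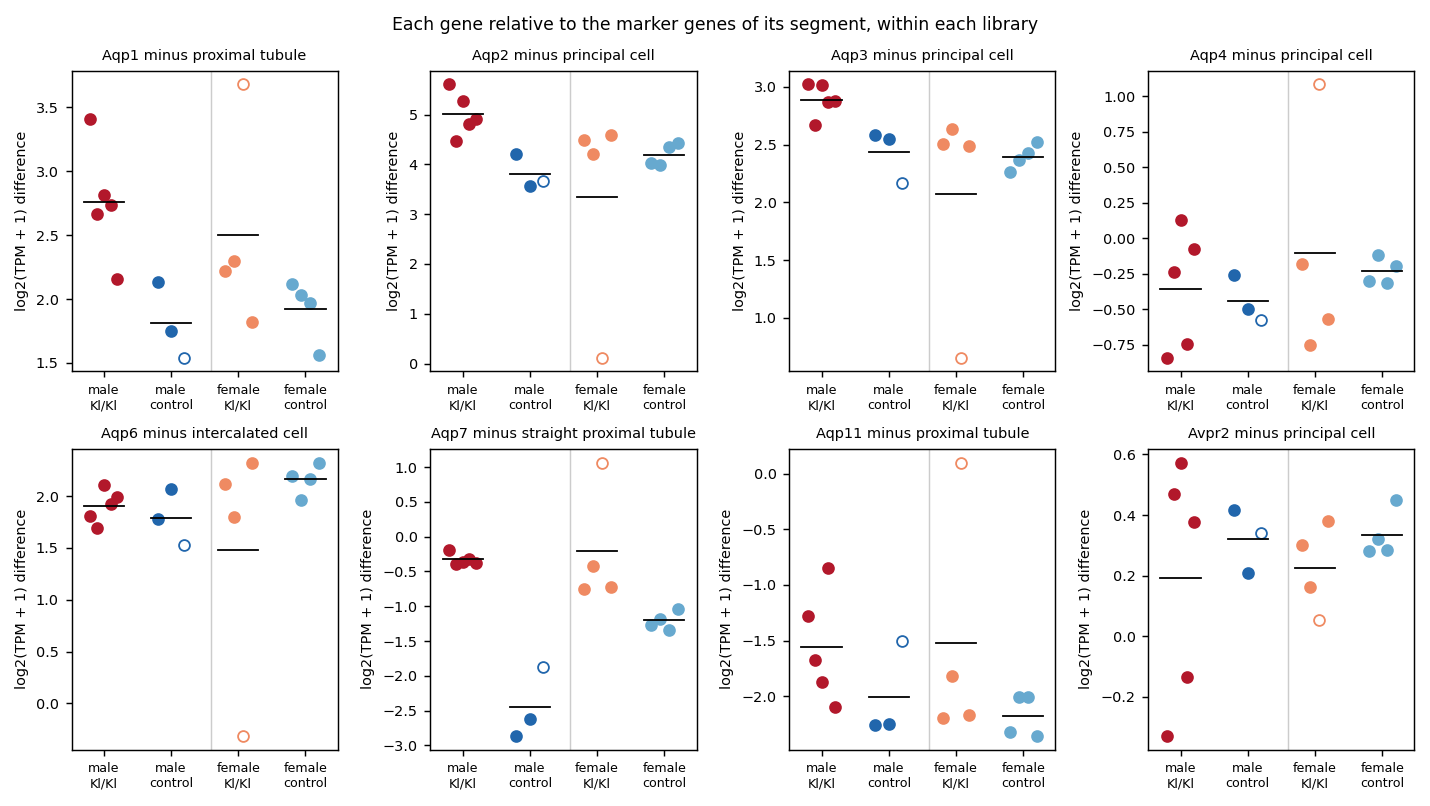
For each gene, its log2(TPM + 1) minus the mean log2(TPM + 1) of the markers of its segment (vertical axis) in every library of male Kl/Kl, male control, female Kl/Kl and female control kidneys; lines are group means and open circles the libraries that stood apart. Aqp1, Aqp2, Aqp3 and Aqp7 separate Kl/Kl from control males, and Aqp7 also separates the females. For Aqp7 the same holds of 98.5% of all genes in males and 64.3% in females. Without male control replicate 3 Aqp11 separates too, as do 66.7% of all genes relative to its markers.

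Whether the change differed between the sexes was tested in a model of all 16 libraries, as the female change minus the male change. Limma called 0 of 8 members, voom called 0, and 0 had an unadjusted p under 0.05, where 0.211% of 8535 genes were called. Aqp2 gave -2.79 (adjusted p = 0.542). With both libraries that stood apart left out, 0 of 8 members were called and 3.89% of 8696 genes (3.43% upward, 0.46% downward). An unadjusted p under 0.05 was then reached by 3 members: Aqp2 (-1.04, SE 0.33, adjusted p = 0.101, limma), Aqp3 (-0.32, adjusted p = 0.231) and Aqp7 (0.32, adjusted p = 0.200). Of all genes, 1768 of 8696 reached it. The larger rise of Aqp2 in males than in females was thus not established after adjustment over all genes. Control genotype cannot be told apart from sex in this test.

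The levels of different members were ordered as exon-based RPKM, with exon lengths from GENCODE M21. In Kl/Kl males Aqp1 was at 515 ± 72.4 and Aqp2 at 515 ± 156 (SD, n = 5), so that the most abundant channels were level. In control males Aqp1 was at 364 ± 142 and Aqp2 at 199.7 ± 43.6 (SD, n = 3), with ranges that met. Aqp3 followed at 86.3 ± 12.6 in Kl/Kl males (n = 5) and 56.1 ± 0.805 in control males (n = 3), then Aqp6 at 26.1 ± 2.31 in Kl/Kl males and 19.7 ± 3.15 in control males. Ranges of Aqp2, Aqp3 and Aqp6 did not meet in either male group, nor did those of Aqp6 and the genes below it. Group means of Aqp4, Aqp11, Aqp7 and Avpr2 were 4.54 to 8.10 in Kl/Kl males, with overlapping ranges and no clear order, and 4.21 to 6.94 in control males. Avpr2 was the lowest of all 8 in control males, at 3.49 to 4.96, where the next, Aqp4, began at 5.07. Control females kept the sequence Aqp1, Aqp2, Aqp3 and Aqp6, at 456, 283, 60.5 and 33.1 on average. Of the aquaporins known mainly from other organs, Mip, Aqp5, Aqp8 and Aqp9 are in the tables and none reached the filter. Among them Aqp5, a channel of secretory glands and lung and the neighbour of Aqp2, was highest in female Kl/Kl replicate 3 (0.685 TPM), against 0.110 to 0.241 TPM in the other Kl/Kl females. The 4 airway markers summed to 973 TPM in that library, against 0.174 to 0.410 TPM in the other Kl/Kl females, and their part in its Aqp5 level was not tested.

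The steps between the receptor and Aqp2 were examined through lists of genes. Of 19 vasopressin signalling genes, 10 were tested in males and limma called 0, 3 having an unadjusted p under 0.05, as did 2271 of all 8439 genes. Their median log2 difference was 0.19, equal to that of all genes. Gnas, the stimulatory G protein subunit, was at 8.41 ± 0.691 TPM in Kl/Kl males (n = 5) and 8.30 ± 0.592 TPM in control males (n = 3). Prkar1a, a regulatory subunit of protein kinase A, was at 12.2 ± 0.743 TPM in Kl/Kl males (n = 5) and 10.1 ± 3.70 TPM in control males (n = 3). Adcy6, the cyclase through which the V2 receptor acts in the collecting duct, was at 12.2 ± 1.79 TPM in Kl/Kl males (n = 5) and 7.63 ± 1.5 TPM in control males (n = 3). It is named after its values were seen, with groups that did not overlap and an adjusted p of 0.0796 by limma. By voom on estimated reads 3 genes of the list rose: Adcy6, the V1a receptor gene Avpr1a and the kinase subunit gene Prkar2a. Voom called many more genes than limma, 1072 of 8439 upward and 431 downward.

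Of the genes that move Aqp2 vesicles, limma called 0 of 11 in males, 2 had an unadjusted p under 0.05, and the median log2 difference was 0.12. Voom called 2, Vamp2 upward and Hspa8 downward, and median-of-ratios scaling 2, Hspa8 and Stx4a, both downward. Of all 8359 genes tested with that scaling, 455 rose and 698 fell. Hspa8, a chaperone that binds Aqp2 during endocytosis and serves all cells, was at 30.9, 43.5, 32.8, 41.3 and 33.4 TPM in Kl/Kl males, against 100.9, 68.3 and 43.5 TPM in control males (log2 difference -0.88, adjusted p = 0.0719). It fell by 1.18 without male control replicate 3 (adjusted p = 0.0120, limma). In females it was at 36.7 to 58.1 TPM in Kl/Kl kidneys and 58.5 to 83.3 TPM in control kidneys, groups that narrowly missed overlapping, and did not pass (adjusted p = 0.745). Stub1, a ubiquitin ligase, was at 28.6 ± 2.85 TPM in Kl/Kl males (n = 5) and 30.9 ± 3.45 TPM in control males (n = 3).

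For transcription factors of the collecting duct, limma called 0 of 6 in males, voom called 0, and 3 had an unadjusted p under 0.05. All 6 had a higher Kl/Kl mean on the log2 scale, with a median of 0.34, against 0.19 for all genes. Without male control replicate 3, 5 of 6 did, with a median of 0.20, and 0 had an unadjusted p under 0.05. Tfcp2l1, a grainyhead-like factor, was at 8.36 ± 1.73 TPM in Kl/Kl males (n = 5) and 5.21 ± 2.40 TPM in control males (n = 3). Hoxb7, a homeobox factor, was at 6.09 ± 0.716 TPM in Kl/Kl males (n = 5) and 5.52 ± 1.99 TPM in control males (n = 3).

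Among genes of the medullary salt and urea gradient, on which water reabsorption depends, 1 of 6 rose in males. This was Slc6a6, the taurine transporter of cells under high tonicity, at 12.6, 10.3, 11.1, 16.4 and 11.1 TPM in Kl/Kl males, against 5.84, 5.80 and 2.37 TPM in control males. Every Kl/Kl male lay above every control male (log2 difference 1.29, SE 0.26, adjusted p = 0.0189, limma). Akr1b3, which makes the osmolyte sorbitol, and Slc5a3, the myo-inositol transporter, are other genes of tonicity and did not pass (log2 differences of -0.03 and 0.31, adjusted p = 0.967 and 0.607). The median of the 6 genes was 0.69, and 0.38 without male control replicate 3. In females 0 of 6 passed, 0 had an unadjusted p under 0.05 and voom called 0. Without Kl/Kl replicate 3, 1 of 6 had an unadjusted limma p under 0.05, as did 1614 of all 8748 genes. It was Slc6a6, higher by 0.45 (adjusted p = 0.196).

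**Figure D5:**
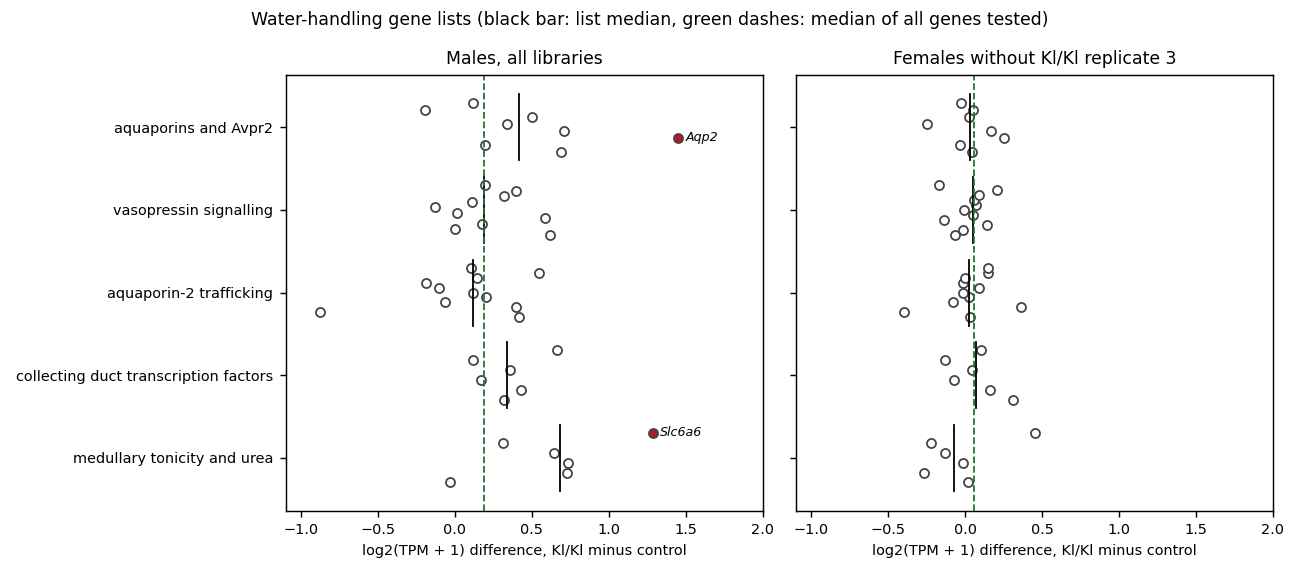
Difference of log2(TPM + 1), Kl/Kl minus control, of each tested gene (circles) in 5 lists, in males with all libraries (left) and females without Kl/Kl replicate 3 (right); black bars are list medians, green dashes the median of all genes tested. Aqp2 and Slc6a6, filled, are the named points past an adjusted p of 0.05, both in males.

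Genes whose pattern over libraries was most like that of a member were ranked by the smaller of 2 Pearson correlations, over the 8 male libraries and over 7 female libraries without Kl/Kl replicate 3, among 2359 genes whose mean reached 5 TPM. For Aqp2 these were Cyp2d26 (0.93 in males and 0.82 in females), Tmem37 (0.95 and 0.82), Gpx1 (0.80 and 0.91), Ddrgk1 (0.79 and 0.79) and Marveld1 (0.87 and 0.77). For Avpr2 they were Klk1, which encodes kallikrein of the distal nephron (0.80 in males and 0.79 in females), Pfn2, Idh3a, Cetn2 and Ndufc2 (smaller correlations of 0.66 to 0.77). For Aqp1 they were Atraid, Eif4ebp2, Rce1, Bloc1s2-ps and Maged1 (smaller correlations of 0.87 to 0.94). The lists share no gene between members. These are descriptions over few libraries that share genotype groups and scaling.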

How the data were processed

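The authors deposited TPM values, 1 table per sex with 8 libraries each. Per the submitters' processing notes, Partek and mm39 were used. The sources used here name no aligner, counting method or strand setting. The values show a division by genomic span, introns included, and column totals of 285327 in males and 265288 in females. Genes with no read stand at about 0.0001 read, which gave estimated reads, and 73.3% to 75.4% of low genes lay within 0.05 of a whole read. These are estimates, so no counting interval is given.

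Values were tested as log2(TPM + 1) with limma 3.58.1 in R 4.3.3, using lmFit and a trended eBayes. A gene entered when its mean over the libraries reached 1 TPM. Benjamini-Hochberg adjustment ran over all genes tested, threshold 0.05. The scripts were tested on simulated data. Markers and lists (18) gave counts and medians with no set test. Named were the 8 members and, per list, up to 4 genes past the threshold or, with none, 2 with the highest mean; other markers and list genes named beside them were chosen after their values were seen. Alternatives were other pseudocounts, filters, scalings and weights, covariates, a replicate block, voom and leaving out libraries. The members and lists were chosen with earlier results of these data known. Promoters came from RefSeq GRCm38.p6. Python 3.11.15, NumPy 2.4.6, pandas 2.3.3 and matplotlib 3.10.9 were used.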

Additional observations from a re-analysis of the deposited data

Results flagged for a closer look

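Within groups of 4 or 5 libraries, 24 sets of values of the 8 genes were examined for a single library far from the others, which chance flags in about 1 set in 20. There were 3 such values, all the lowest of female Kl/Kl replicate 3: Aqp1 at 13.4 TPM (105 to 112 TPM in the other Kl/Kl females), Aqp3 at 0.653 TPM (23.1 to 27.0 TPM) and Avpr2 at 0.0895 TPM (4.06 to 4.60 TPM). The same library had 0.260 TPM of principal cell markers and 0.879 TPM of proximal tubule markers.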

How the results depend on the processing

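In males the number of the 8 genes called was 1 as reported. It was 0 with no filter on low values, where of all 30277 genes 243 rose and 322 fell. It was also 0 with Kl/Kl replicates 1 and 4 left out together (added after seeing the data), where of 8230 genes 68 rose and 103 fell. With the library name's prefix as a covariate it was 2, where of all 8439 genes 990 rose and 259 fell. By voom on estimated reads it was 2, where of all 8439 genes 1072 rose and 431 fell. With array weights it was 3 (2 rose, 1 fell), where of all genes 1375 rose and 1454 fell. Those weights did not converge fully. The number of members called is meant in each case. This number ranged from 0 to 1 when a library was left out. In those fits 89 to 317 of all genes tested rose and 96 to 636 fell, with 8323 to 8640 tested. Over the alternatives Aqp2 in males ranged from 1.19 to 1.69 (adjusted p 0.00172 to 0.0633), being 0.0573 with no filter and 0.0600 without Kl/Kl replicates 1 and 4. In the sex comparison array weights gave 1 call, Aqp2, where of all 8535 genes 823 were called upward and 213 downward. Differences that turned in sign were not past the threshold: Aqp11 (-0.0146 with median-of-ratios scaling and -0.0142 with array weights) and Avpr2 (-0.0841 with median-of-ratios scaling) in males, and with array weights in females Aqp1 (0.0497), Aqp2 (0.24), Aqp3 (0.16) and Aqp6 (0.0526). Leaving out a library gave Avpr2 in males -0.00469 (without Kl/Kl replicate 3) to 0.27, and in females Aqp1 -0.94 to 0.0456, Aqp2 -1.92 to 0.25, Aqp3 -1.20 to 0.17 and Aqp6 -1.52 to 0.0224, the upper ends without Kl/Kl replicate 3. The cause was not tested. The number of male members separated relative to their markers, 4, was 3 with a pseudocount of 0.1 and 5 without control replicate 3. Relative to principal cell, proximal tubule and straight proximal tubule markers, 5.51%, 10.3% and 98.5% of all genes were wholly higher in Kl/Kl males. Without control replicate 3 these shares were 6.68%, 66.7% and 99.3%. They were not computed with a pseudocount of 0.1. Replicate numbers did not pair the libraries (correlations of deviations -0.131, 0.041 and -0.177 in males and 0.0626, -0.0797, -0.116 and 0.29 in females). With the replicate block Aqp2 in males was 1.6 (adjusted p = 0.0263) and the count stayed at 1. Of all genes in males, 227 were called with the block and 500 without it.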
